A study of Mus musculus with 23 samples.

Results

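The 49 genes described here make the lysosome acidic, break down what it takes up, or build its membrane, and they were followed across 4 groups of mouse hippocampal CD11b+ cells. They were chosen by gene symbol and by known function, with no measured value in the rule. All 49 stood among the 18876 genes of the count table and among the 18759 that had enough counts to test. The set holds 17 genes of the V-ATPase proton pump (7 of its membrane domain V0, 8 of its soluble domain V1 and 2 accessory subunits), 10 hydrolases of glycans, 9 hydrolases and activators of sphingolipid breakdown, 3 genes for a peptidase, a thioesterase and progranulin, 8 lysosomal membrane proteins and the transcription factors Tfeb and Tfe3. The study asked how an iron transporter of microglia, Slc11a2 (also called DMT1), bears on the transcripts of these cells in aged female mice with and without amyloid pathology. Each library is bulk RNA-seq of cells taken from both hippocampi with magnetic beads against CD11b, an integrin chain found on myeloid cells, microglia among them. Control WT (6 libraries) and Control APP/PS1 (6 used of 7 deposited) received corn oil. Slc11a2KD WT (5) and Slc11a2KD APP/PS1 (5) received tamoxifen by gavage, 4 mg per day for 5 days at 5 to 6 months of age. Both control groups, like both knockdown groups, carried Slc11a2 fl/fl and 1 copy of Cx3cr1 Cre-ERT2 on a mixed 129S;C57BL/6J background. Cre-ERT2 is a recombinase that tamoxifen activates, here under a promoter of microglia and other macrophages. Tamoxifen and loss of Slc11a2 cannot be told apart in this design. The APP/PS1 mice were hemizygous for transgenes that drive amyloid deposition and WT mice were their littermates. All were euthanised at 15 to 18 months.

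Lysosomes work at low pH, which the V-ATPase sets by coupling ATP hydrolysis in V1 to proton flow through V0. In microglia they digest phagocytosed material, amyloid and myelin included. The study places DMT1 at the plasma membrane and in endosomes, from where it passes reduced iron to the cytosol. Inherited loss of many of these hydrolases causes lysosomal storage disease, and TFEB and TFE3 bind E-box motifs in front of many of the genes.

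Depth ran from 31128643 to 54872491 counts per library with a median of 41460280 over the 22 libraries, and levels are given as CPM, the count of a gene relative to the TMM-scaled total of its library. In a bulk sample, fewer cells of a type and less RNA per cell cannot be told apart. Summed over 9 microglial marker genes, CPM was 42914 to 49184 in Control WT and 33062 to 37737 in Control APP/PS1, against 42587 to 50302 in Slc11a2KD WT and 36760 to 40422 in Slc11a2KD APP/PS1. Of these 9 genes, 3 were called lower in APP/PS1 than in WT cells of control mice. In knockdown mice 5 were called lower and 2 had a positive log2 fold change. The summed level was high in every library and lower in both APP/PS1 groups. Border macrophage markers (6 genes) were also lower there, with summed medians of 308 CPM in Control WT, 95.7 CPM in Control APP/PS1, 318 CPM in Slc11a2KD WT and 151 CPM in Slc11a2KD APP/PS1. Choroid plexus markers (10 genes) reached 1966 CPM in Control WT 0012 and 1011 CPM in Control WT 0015. They were 1.09 to 5.34 CPM in the other Control WT libraries, so only 0012 and 0015 lay above Control APP/PS1. These markers stayed at or below 5.41 CPM in Control APP/PS1, where 8 were called lower than in Control WT. In Slc11a2KD WT they were 791 CPM in 0019 and 439.7 CPM in 0022 against 10.6 to 51.1 CPM in 0001, 0002 and 0003, and in knockdown mice 0 were called. They were 2.30 CPM in Slc11a2KD APP/PS1 0004 against 87.7 to 487 CPM in the rest of that group. Oligodendrocyte markers (5 genes) had summed medians of 1214, 541, 2034 and 824 CPM in Control WT, Control APP/PS1, Slc11a2KD WT and Slc11a2KD APP/PS1. Endothelial markers (5 genes) summed to 156 to 323 CPM in Control WT and 100.1 to 133 CPM in Control APP/PS1, without overlap and with 3 genes called lower and 1 higher. In Slc11a2KD WT and Slc11a2KD APP/PS1 they summed to 123 to 269 CPM and 80.8 to 156 CPM, with 2 called lower. Neutrophil markers (6 genes) had medians of 145, 53.8, 107 and 69.3 CPM in the same order of groups, with 4 called lower in control mice and 1 in knockdown mice, and monocyte markers (4 genes) 34.1, 12.2, 28.0 and 13.5 CPM, with 2 and 0 called lower. The part of other cells in the results was not tested. Slc11a2 itself measured 35.1 ± 5.13 CPM (SD) in Control WT, 43.2 ± 3.93 in Control APP/PS1, 34.2 ± 4.75 in Slc11a2KD WT and 56.5 ± 13.5 in Slc11a2KD APP/PS1. The recombined allele lacks only some exons and a total per gene does not isolate them, so these values check nothing about the knockdown. Libraries also differed in the balance of short against long transcripts. This balance is the median log2 deviation of the shortest quintile of genes by exon length minus that of the longest quintile. It was -0.62 to -0.20 in Control WT, -0.41 to 0.092 in Control APP/PS1, -0.88 to 0.37 in Slc11a2KD WT and -0.29 to 0.94 in Slc11a2KD APP/PS1, where 0004 was the lowest and 0021 the highest. It is set beside the results it moves with. The study describes the libraries of a group as biological replicates from separate mice.

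The promoter sequences of the members were read first, since TFEB and TFE3 are themselves members. RefSeq promoter windows (GRCm38.p6, from 250 bases before to 50 after the annotated start) were at hand for 42 of the 49 and were placed in GRCm39 by exact match. The palindrome CACGTG reads the same on both strands and is the core of the motif that TFEB family factors bind. It lay in the window of 13 of the 42 members (31%) against 8.09% of 27025 genes with a window and 11.1% of the 12162 that were also tested here. The longer palindrome TCACGTGA, which contains CACGTG, lay in 6 of the 42 (14.3%) against 1.12% and 2.01%. Shown here, as 30 bases around each match with CACGTG in capitals, 5′ to 3′ on the strand of the gene, are the sites of the 7 members with a match that were called in the same direction in both APP/PS1 comparisons described further on.
Atp6v1a (chr16:43959736-43959765, minus strand): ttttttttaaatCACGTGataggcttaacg
Naglu (chr11:100960835-100960864, plus strand): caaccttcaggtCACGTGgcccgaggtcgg
Glb1 (chr9:114230086-114230115, plus strand): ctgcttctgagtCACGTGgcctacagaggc
Gla site 1 (chrX:133501964-133501993, minus strand): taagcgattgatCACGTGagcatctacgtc
Gla site 2 (chrX:133501931-133501960, minus strand): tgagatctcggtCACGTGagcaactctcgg
Mcoln1 site 1 (chr8:3550436-3550465, plus strand): ggtcgcgcttgtCACGTGttcagttcaggc
Mcoln1 site 2 (chr8:3550462-3550491, plus strand): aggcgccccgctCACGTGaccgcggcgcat
Cln3 site 1 (chr7:126182540-126182569, minus strand): gcaaccctcaagCACGTGatggaaggctca
Cln3 site 2 (chr7:126182512-126182541, minus strand): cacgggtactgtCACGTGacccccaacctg
Sgsh (chr11:119246348-119246377, minus strand): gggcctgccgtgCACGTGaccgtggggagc
The first 6 of these genes were higher in APP/PS1 cells and Sgsh was lower. Gla, Mcoln1 and Cln3 each held a pair of matches, and the longer palindrome was complete in Atp6v1a, in both sites of Gla, in Mcoln1 site 2 and in Cln3 site 2. The matches began 227 and 194 bases before the annotated start in Gla, 131 in Atp6v1a and 29 in Sgsh. In the annotation, the Glb1 site lay in no gene and the Gla sites lay in an exon of Hnrnph2 on the opposite strand. The Atp6v1a site lay in exons of Atp6v1a and of Naa50, the Sgsh site partly in an exon of Sgsh and wholly in one of Slc26a11, and the others in whole or in part in exons of their own genes. The remaining members with CACGTG were Atp6v0b, Atp6v0d1, Atp6v0e, Gaa, Arsa and Lamp1. By call, CACGTG lay in 7 of 18 members that were higher in Control APP/PS1 than in Control WT, in 1 of 5 that were lower and in 5 of 19 that were not called. In the knockdown mice these numbers were 9 of 21, 1 of 6 and 3 of 15. A match describes these letters only.

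In cells of control mice, 21 of the 49 members (42.9%) were higher in APP/PS1 than in WT and 6 (12.2%) were lower, at an adjusted p under 0.05 (edgeR quasi-likelihood test, Benjamini-Hochberg over all 18759 genes), beside 5.99% and 4.48% of all genes tested. In cells of knockdown mice, 25 (51%) rose and 7 (14.3%) fell, beside 9.77% and 6.41% of all genes. Alpha-galactosidase A (Gla) and the tetraspanin Cd63 rose most among members well above zero in the WT groups, and the heparan N-sulfatase Sgsh fell most. The median log2 fold change of the members was 0.37 in control and 0.36 in knockdown mice, against -0.022 and -0.067 over all genes. The microglial, border macrophage, oligodendrocyte, endothelial, neutrophil and monocyte markers summed above had lower medians in both APP/PS1 groups, and their part in these counts was not tested. The comparisons in control and in knockdown mice share no library. The same 18 members were higher in both, from the pump (Atp6v0c, Atp6v0d2, Atp6v1a, Atp6v1b2, Atp6v1c1, Atp6v1d, Atp6v1f), the hydrolases (Naglu, Gusb, Neu1, Fuca1, Glb1, Galc, Gla) and the membrane (Lamp2, Cd63, Mcoln1, Cln3). Lower in both were 4 (Atp6v0a2, Sgsh, Ids, Scarb2). None was called in opposite directions, 5 were called in control mice alone and 10 in knockdown mice alone, and 12 in neither. How many of all genes were called alike in both pairs was not counted, so this overlap has no share to stand beside. A call in one pair of groups alone is not a difference between pairs. The interaction of knockdown and APP/PS1 passed the threshold for 0 members and 0% of all genes (edgeR). DESeq2 called 0 members too, with 0.133% of all genes.

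**Figure D1:**
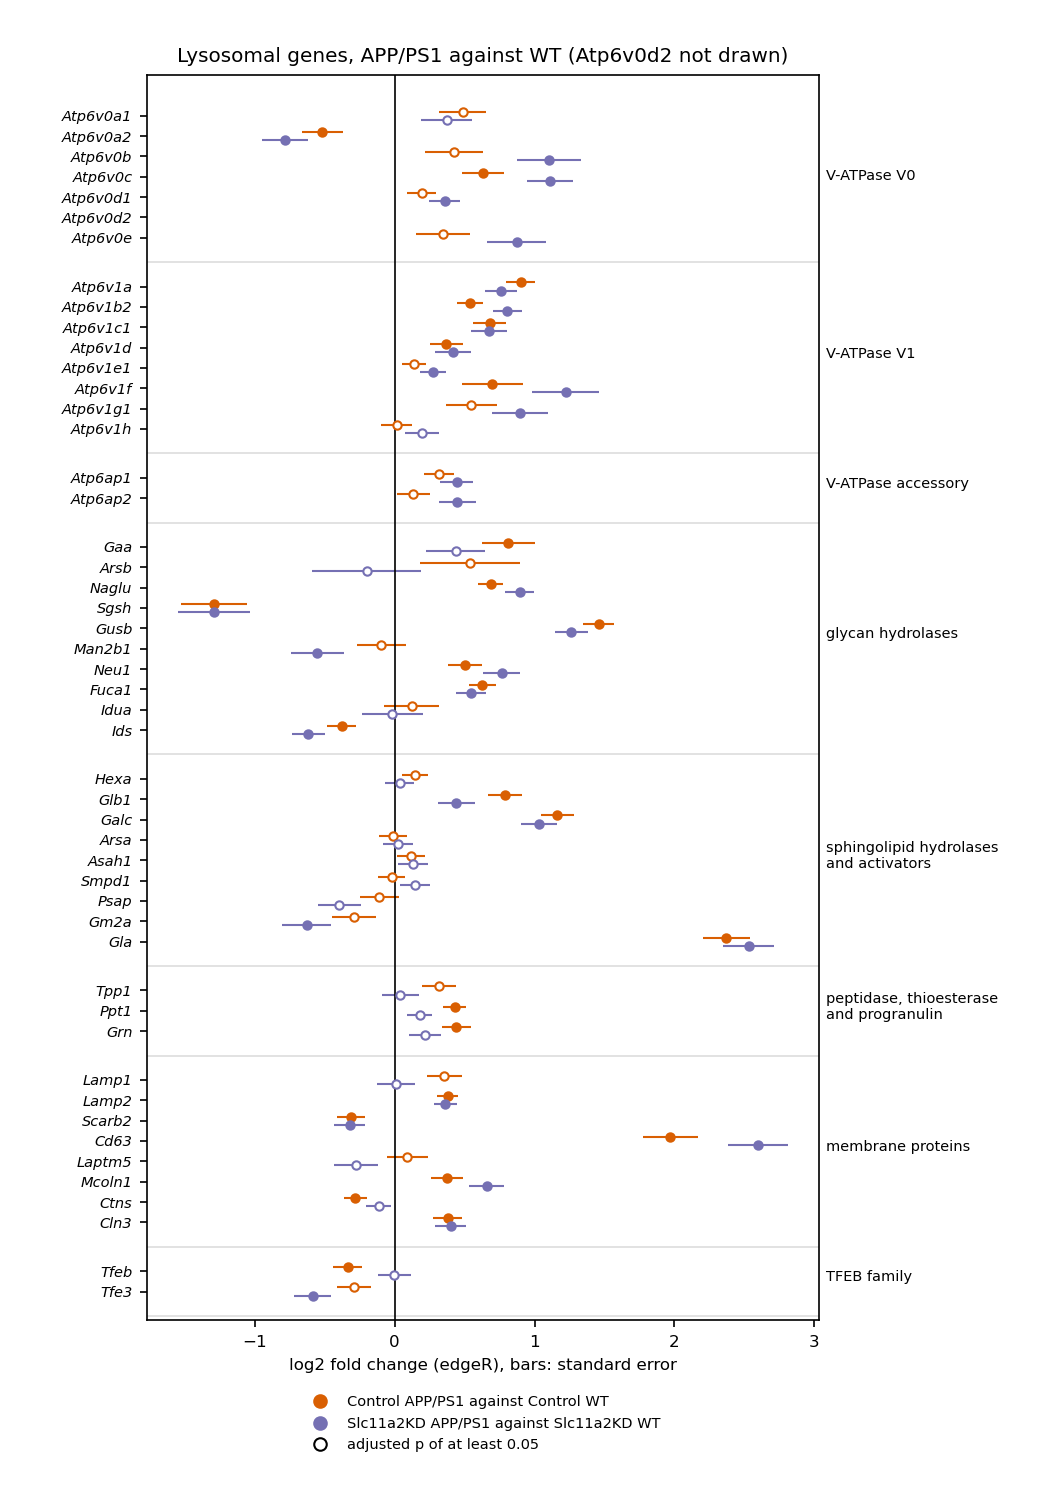
Log2 fold change of APP/PS1 against WT with its standard error for 48 members grouped by class, in control mice and in Slc11a2KD mice. Filled circles passed an adjusted p of 0.05 and open circles did not, Atp6v0d2 was not drawn because its WT levels were near 0, and Gla and Cd63 stand furthest to the right and Sgsh furthest to the left in both.

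Of the 27 members called in control mice, 19 kept the call whichever of the 12 libraries was left out, and of the 32 called in knockdown mice 23 kept it whichever of the 10 was left out. In control mice the call of Atp6v0a2 was lost without Control APP/PS1 0007, 0011 or 0013 (adjusted p up to 0.0606), that of Cln3 without Control WT 0012 (0.0508), and that of Ctns without Control WT 0006, 0008 or 0009 or Control APP/PS1 0011 or 0016 (up to 0.0742). Most single libraries ended the calls nearest the threshold. Atp6v1d was lost without any library but Control WT 0014 and Control APP/PS1 0017 (up to 0.125), Atp6v1f without any but Control WT 0014 and Control APP/PS1 0005 (up to 0.0907), and Scarb2 without any but Control WT 0014 and 0015 (up to 0.126). Mcoln1 was lost without any library but Control WT 0006 and 0008 (up to 0.0872), and Tfeb without any but Control WT 0008 and 0014 and Control APP/PS1 0016 (up to 0.0969). In knockdown mice the calls of Atp6v1d, Atp6v1e1 and Scarb2 were lost without Slc11a2KD WT 0001, 0002 or 0003 or Slc11a2KD APP/PS1 0020, 0021 or 0023 (up to 0.121, 0.147 and 0.139), and that of Man2b1 without any of these or Slc11a2KD WT 0019 (up to 0.137). Without the same Slc11a2KD WT libraries or Slc11a2KD APP/PS1 0020 or 0021, the calls of Atp6ap2 (up to 0.0836) and Atp6v0d1 (up to 0.112) were lost, the latter also without 0018. Glb1 was lost without Slc11a2KD WT 0001 or 0002 or Slc11a2KD APP/PS1 0018 (up to 0.0577), Gm2a without Slc11a2KD WT 0002 (0.0587) and Cln3 without Slc11a2KD WT 0002 or Slc11a2KD APP/PS1 0023 (up to 0.0612).

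Libraries 18 to 23 of the labels' numbering all come from knockdown mice, and within them (Slc11a2KD WT 0019 and 0022, Slc11a2KD APP/PS1 0018, 0020, 0021 and 0023) 7 members (14.3%) rose and 0 fell, beside 1.68% and 0.41% of the 15611 genes tested in those libraries. The 7 were Atp6v0c, Atp6v0d2, Naglu, Gusb, Galc, Gla and Cd63. With these library numbers as a covariate, 8 of the 32 calls in knockdown mice were lost (Atp6v0d1, Atp6v1d, Atp6v1e1, Atp6ap2, Man2b1, Gm2a, Scarb2 and Cln3) and that of Atp6v0a1 was gained. With the 2 knockdown groups alone in the fit, 14 were lost, these 8 and Atp6v0e, Atp6v1g1, Atp6ap1, Glb1, Lamp2 and Tfe3. The median log2 fold change of the members was 0.39 in that fit and 0.36 in the fit of all groups. In the accounts that follow, 3 values for a control group are its lowest, median and highest library. The 5 values for a knockdown group stand in the order of the library numbers (0001, 0002, 0003, 0019 and 0022 for Slc11a2KD WT, and 0004, 0018, 0020, 0021 and 0023 for Slc11a2KD APP/PS1). Errors are SE after a log2 fold change and SD after a CPM.

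In the V1 domain, which hydrolyses ATP, 5 of 8 subunits rose in control APP/PS1 cells and 7 of 8 in knockdown APP/PS1 cells, and none fell. Atp6v1a, the catalytic subunit, was at 108, 123 and 135 CPM in Control WT and 184, 234 and 260.3 CPM in Control APP/PS1. In knockdown mice it was 122, 127, 122, 125 and 104 CPM in WT and 196, 239, 208, 162 and 207 CPM in APP/PS1. Every APP/PS1 library lay above every WT library in both pairs (log2 fold change 0.90 ± 0.10, adjusted p = 1.35e-06 in control mice, and log2 fold change 0.76 ± 0.11, adjusted p = 5.85e-05 in knockdown mice). Atp6v1b2, which forms the hexameric head with the catalytic subunit, was at 248, 271 and 305 CPM in Control WT and 364, 401 and 407 CPM in Control APP/PS1. Its levels were 257, 252, 224, 266 and 287 CPM in Slc11a2KD WT and 369, 398, 499, 528 and 453 CPM in Slc11a2KD APP/PS1. Again the groups did not overlap in either pair (log2 fold change 0.54 ± 0.093, adjusted p = 0.000296, and log2 fold change 0.80 ± 0.10, adjusted p = 8.46e-06). Atp6v1c1, a subunit involved in joining V1 to V0, rose from 158 ± 13.04 to 253 ± 42.3 CPM (log2 fold change 0.68 ± 0.12, adjusted p = 0.000264) and in knockdown mice from 173 ± 22.2 to 276 ± 38.9 CPM (log2 fold change 0.67 ± 0.13, adjusted p = 0.000871), without overlap.

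The rotor and stalk subunits were less uniform. Atp6v1f, part of the central rotor and the shortest of the members by exon length, was at 137, 166 and 201 CPM in Control WT and 195, 284 and 313 CPM in Control APP/PS1. It was at 158, 130.0, 106, 203 and 295 CPM in Slc11a2KD WT and 228, 333, 449.8, 646 and 426 CPM in Slc11a2KD APP/PS1. The groups overlapped in both pairs, with Slc11a2KD WT 0022 above Slc11a2KD APP/PS1 0004 (log2 fold change 0.70 ± 0.22, adjusted p = 0.0407, and log2 fold change 1.22 ± 0.24, adjusted p = 0.00132). The libraries with the highest short-transcript balance, 0021, 0020 and 0023 in APP/PS1 and 0022 in WT, were also those with most Atp6v1f in their groups. Atp6v1g1, a peripheral stalk subunit, was at 233, 248 and 293 CPM in Control WT and 288, 373 and 428 CPM in Control APP/PS1, which did not pass the test (log2 fold change 0.55 ± 0.18, adjusted p = 0.0563). In knockdown mice it was at 264, 199.9, 178, 296 and 416 CPM in WT and 312, 409.5, 537, 719 and 546 CPM in APP/PS1, an increase that passed although 0022 again overlapped the APP/PS1 range (log2 fold change 0.90 ± 0.20, adjusted p = 0.00365). Atp6v1d of the rotor rose in both pairs, from 61.03 ± 5.17 to 78.9 ± 9.44 CPM (log2 fold change 0.37 ± 0.12, adjusted p = 0.0467) and from 64.5 ± 11.7 to 85.9 ± 14.6 CPM (log2 fold change 0.41 ± 0.13, adjusted p = 0.0315). It lost its call without any 1 of 10 control or any 1 of 6 knockdown libraries. Atp6v1e1 of the peripheral stalk passed in knockdown mice alone (97.8 ± 6.05 against 118 ± 15.1 CPM, log2 fold change 0.28 ± 0.093, adjusted p = 0.0464). Its adjusted p in control mice was 0.364. Atp6v1h, a regulatory subunit, passed in neither (78.95 ± 6.25, 79.7 ± 3.14, 80.4 ± 8.62 and 92.00 ± 20.2 CPM in Control WT, Control APP/PS1, Slc11a2KD WT and Slc11a2KD APP/PS1).

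The V0 domain, which carries the protons, has subunits with several isoform genes. Atp6v0d2, a tissue-restricted isoform of the subunit that couples V0 to the rotor, was at 0, 0.194 and 1.65 CPM in Control WT and 2.21, 14.8 and 39.3 CPM in Control APP/PS1. It was at 0, 0.191, 0.315, 0 and 0 CPM in Slc11a2KD WT and 5.01, 28.5, 13.2, 27.8 and 18.2 CPM in Slc11a2KD APP/PS1. Every APP/PS1 library exceeded every WT library (adjusted p = 0.000281 in control and 0.000105 in knockdown mice). No fold is given because several WT libraries had no count and a fitted fold then depends on the prior count. The broadly used isoform Atp6v0d1 was at 137 ± 11.05 against 157 ± 10.4 CPM in control mice (log2 fold change 0.20 ± 0.10, adjusted p = 0.259) and 136 ± 24.3 against 174 ± 19.7 CPM in knockdown mice (log2 fold change 0.36 ± 0.11, adjusted p = 0.0346). Of the large a subunits, which line the proton path, Atp6v0a2 fell from 212 ± 7.95 to 148 ± 25.9 CPM in control mice (log2 fold change -0.52 ± 0.15, adjusted p = 0.0227) and from 207 ± 37.9 to 119.9 ± 31.5 CPM in knockdown mice (log2 fold change -0.78 ± 0.16, adjusted p = 0.00185). It was the one pump gene called lower. Atp6v0a1 was at 97.7 ± 15.01 against 137 ± 20.8 CPM in control mice, groups that did not overlap although the test was not passed (log2 fold change 0.49 ± 0.17, adjusted p = 0.0681), and at 86.5 ± 21.2 against 112 ± 27.7 CPM in knockdown mice (log2 fold change 0.37 ± 0.18, adjusted p = 0.168).

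Of the small V0 subunits, Atp6v0b and Atp6v0e passed in knockdown mice and not in control mice. Atp6v0b, of the proteolipid ring, was at 348, 393 and 513 CPM in Control WT and 443, 562 and 641 CPM in Control APP/PS1 (log2 fold change 0.42 ± 0.21, adjusted p = 0.212). It was at 395, 303, 275, 454 and 635 CPM in Slc11a2KD WT and 469.7, 646, 916, 1411 and 990.3 CPM in Slc11a2KD APP/PS1 (log2 fold change 1.10 ± 0.23, adjusted p = 0.00204). The knockdown groups overlapped through 0022 of the WT group, at 635 CPM, and 0004 of the APP/PS1 group. Of the exon length of Atp6v0b, 55.1% is shared with a gene on the opposite strand, and the strand setting of the counting is not given in the sources used here. Without strand, reads of such genes cannot be told apart, and the shares above 20% were 49.4% for Lamp1, 40.5% for Atp6v1e1, 33.1% for Grn, 26.2% for Sgsh, 25.9% for Arsa and 22.2% for Atp6v1d. Atp6v0e, a small membrane subunit, was at 185, 198 and 224 CPM in Control WT and 206, 257 and 277 CPM in Control APP/PS1 (log2 fold change 0.34 ± 0.19, adjusted p = 0.29). It was at 187, 155, 128, 252 and 308 CPM in Slc11a2KD WT and 209, 315, 405, 577 and 379.8 CPM in Slc11a2KD APP/PS1 (log2 fold change 0.87 ± 0.21, adjusted p = 0.00669). As with Atp6v0b, 0021 was the highest and 0003 the lowest of the 22 libraries, and these were also the ends of the short-transcript balance.

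Atp6v0c, the main ring subunit, needs its near-identical pseudogene copy Atp6v0c-ps2 beside it. On its own, Atp6v0c was at 157, 187 and 246 CPM in Control WT and 235, 281 and 380.3 CPM in Control APP/PS1 (log2 fold change 0.63 ± 0.15, adjusted p = 0.00635). It was at 139, 123, 188, 146 and 146 CPM in Slc11a2KD WT and 323, 347, 406, 272 and 257 CPM in Slc11a2KD APP/PS1 (log2 fold change 1.11 ± 0.16, adjusted p = 5.85e-05). The knockdown groups did not overlap, and the control groups overlapped at their edges. The copy had 1238 to 3813 counts in 10 libraries and 8 to 68 in the other 12, with no library between. The 10 were Control WT 0006, Control APP/PS1 0005, 0007 and 0017, Slc11a2KD WT 0001, 0002, 0019 and 0022, and Slc11a2KD APP/PS1 0021 and 0023. Within every group Atp6v0c was lower in these libraries than in the rest, for example 235 to 239 CPM against 323 to 380.3 CPM in Control APP/PS1. With both counts added, CPM was 197 ± 24.5 in Control WT, 329.8 ± 35.9 in Control APP/PS1, 176 ± 14.8 in Slc11a2KD WT and 351 ± 32.4 in Slc11a2KD APP/PS1. The sum rose in both pairs (log2 fold change 0.74 ± 0.098, adjusted p = 1.03e-05, and 1.00 ± 0.11, adjusted p = 8.81e-07, edgeR). In the sum, the libraries rich in the copy were still the lowest in Control APP/PS1, at 296 to 307 CPM against 325 to 381 CPM in the rest, and in Slc11a2KD WT, at 152 to 184 CPM against 189.6 CPM. How reads were split between the gene and its copy was not tested.

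**Figure D2:**
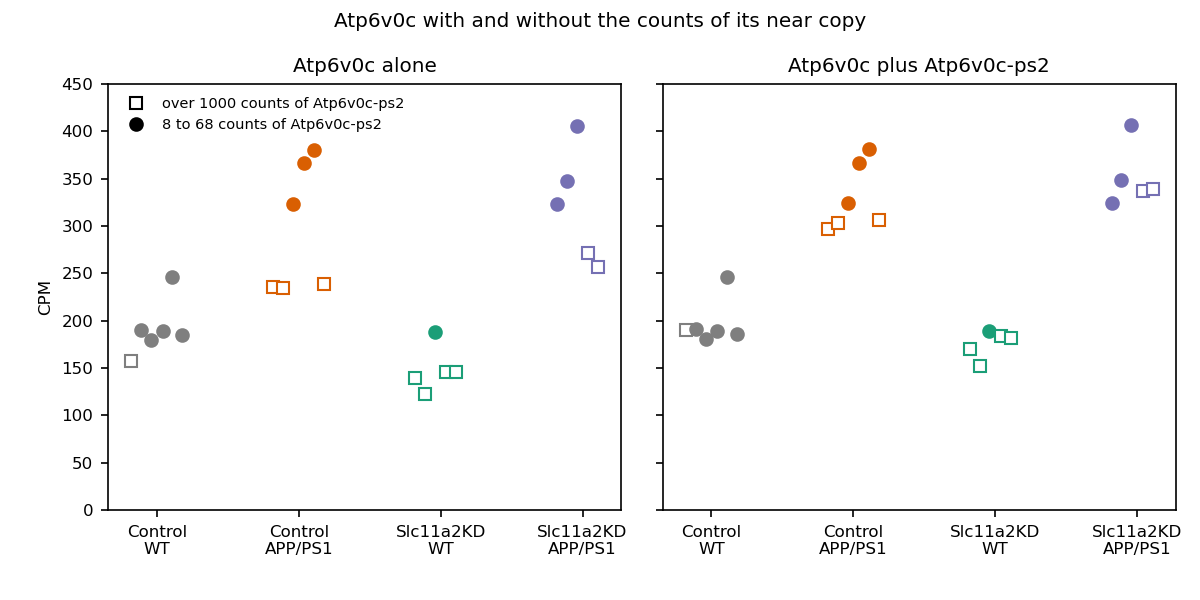
CPM of Atp6v0c alone and of Atp6v0c plus its copy Atp6v0c-ps2 in each of the 22 libraries by group. Open squares mark the 10 libraries with 1238 to 3813 counts of the copy, which sit lowest in their groups for Atp6v0c alone and, once the counts are added, are still the lowest in Control APP/PS1 and Slc11a2KD WT but not in Control WT and Slc11a2KD APP/PS1.

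The accessory subunits, which assist assembly and trafficking of the pump, passed in knockdown mice alone. Atp6ap1 was at 601, 670.2 and 726 CPM in Control WT and 745, 814 and 919 CPM in Control APP/PS1, without overlap but short of the threshold (log2 fold change 0.31 ± 0.11, adjusted p = 0.0618). It was at 618, 554, 553, 752 and 853 CPM in Slc11a2KD WT and 796, 851, 877, 979.7 and 1026 CPM in Slc11a2KD APP/PS1, where 0022 overlapped (log2 fold change 0.44 ± 0.12, adjusted p = 0.0112). Atp6ap2, also known as the prorenin receptor, was at 255, 288 and 306 CPM in Control WT and 276, 312 and 348 CPM in Control APP/PS1 (log2 fold change 0.13 ± 0.12, adjusted p = 0.563). It was at 256, 241, 263, 319.7 and 356 CPM in Slc11a2KD WT and 310.2, 308, 442, 493 and 408 CPM in Slc11a2KD APP/PS1, overlapping through 0019 and 0022 (log2 fold change 0.45 ± 0.13, adjusted p = 0.0199). In all, 5 of the 10 libraries could each end that call when left out. Over the whole pump, 7 genes rose and 1 fell of 17 in control mice, and 14 rose and 1 fell in knockdown mice.

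Among the glycan hydrolases, 5 of 10 rose and 2 fell in control mice, and 4 rose and 3 fell in knockdown mice. Gusb, the beta-glucuronidase that trims glycosaminoglycans (chr5:130017852-130031903 in GRCm39), was at 251, 268 and 346 CPM in Control WT and 651, 701 and 970.1 CPM in Control APP/PS1. In knockdown mice it was at 309, 301, 286, 256 and 271 CPM in WT and 644, 787, 677, 625 and 686 CPM in APP/PS1. All APP/PS1 libraries lay far above all WT libraries (log2 fold change 1.46 ± 0.11, adjusted p = 4.10e-09, and log2 fold change 1.26 ± 0.12, adjusted p = 2.14e-07). Naglu and Sgsh act on the same substrate, heparan sulfate, and moved in opposite directions. Naglu was at 212, 227 and 253 CPM in Control WT and 307, 389.5 and 413 CPM in Control APP/PS1. It was at 238, 203, 199, 237 and 202 CPM in Slc11a2KD WT and 389, 373, 409.9, 415 and 418 CPM in Slc11a2KD APP/PS1. Neither pair overlapped (log2 fold change 0.69 ± 0.092, adjusted p = 1.31e-05, and log2 fold change 0.89 ± 0.10, adjusted p = 1.67e-06). Sgsh was at 19.2, 26.1 and 37.8 CPM in Control WT and 8.80, 10.4 and 14.9 CPM in Control APP/PS1. All APP/PS1 libraries lay below all WT libraries (log2 fold change -1.29 ± 0.24, adjusted p = 0.000556). It was at 20.4, 23.8, 37.2, 29.4 and 13.1 CPM in Slc11a2KD WT and 15.04, 11.9, 9.05, 5.85 and 8.68 CPM in Slc11a2KD APP/PS1. There 0004 lay above 0022 of the WT group and the other libraries did not overlap (log2 fold change -1.29 ± 0.26, adjusted p = 0.00147).

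Gaa, which frees glucose from glycogen in the lysosome, was at 75.99, 91.2 and 107 CPM in Control WT and 138, 154 and 204 CPM in Control APP/PS1, without overlap (log2 fold change 0.81 ± 0.19, adjusted p = 0.00657). It was at 76.98, 79.2, 105, 93.95 and 49.8 CPM in Slc11a2KD WT and 166, 129, 108, 58.7 and 85.3 CPM in Slc11a2KD APP/PS1, a wide and overlapping range that did not pass (log2 fold change 0.44 ± 0.21, adjusted p = 0.156). Neu1, a sialidase, rose in both pairs, from 81.1 ± 9.36 to 115 ± 10.5 CPM (log2 fold change 0.50 ± 0.12, adjusted p = 0.00816) and from 78.4 ± 8.06 to 133 ± 30.8 CPM (log2 fold change 0.76 ± 0.14, adjusted p = 0.000433). Fuca1, a fucosidase, did likewise, from 146 ± 16.1 to 226 ± 23.8 CPM (log2 fold change 0.63 ± 0.10, adjusted p = 8.75e-05) and from 133 ± 8.55 to 194 ± 21.5 CPM (log2 fold change 0.54 ± 0.11, adjusted p = 0.00125). Ids, the iduronate sulfatase, fell in both, from 149 ± 9.35 to 114 ± 5.29 CPM (log2 fold change -0.38 ± 0.11, adjusted p = 0.0203) and from 147 ± 16.9 to 96.1 ± 17.99 CPM (log2 fold change -0.62 ± 0.12, adjusted p = 0.000812), and neither pair overlapped. Man2b1, an alpha-mannosidase, fell in knockdown mice alone, from 979 ± 154 to 667 ± 256 CPM (log2 fold change -0.55 ± 0.19, adjusted p = 0.0492), a call that 7 of the 10 libraries could each end when left out. Idua, the iduronidase, passed in neither pair, with group means between 27.3 and 34.1 CPM. Arsb, a sulfatase of dermatan and chondroitin sulfate, was the most scattered of the well-expressed members. It was at 288, 376 and 1001 CPM in Control WT and 475, 773 and 1077 CPM in Control APP/PS1. It was at 992, 1145, 1096, 854 and 566 CPM in Slc11a2KD WT and 1493, 1199.8, 621, 319 and 419 CPM in Slc11a2KD APP/PS1. Libraries of 1 group differed more than the groups did, and no comparison passed.

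Of the 9 genes for sphingolipid breakdown, the hydrolases Gla, Galc and Glb1 rose in both pairs. Gla, alpha-galactosidase A, cleaves terminal galactose from globotriaosylceramide (chrX:133488891-133501904) and was at 6.51, 7.18 and 11.5 CPM in Control WT and 28.2, 44.8 and 48.6 CPM in Control APP/PS1. In knockdown mice it was at 7.76, 7.29, 6.22, 7.78 and 6.32 CPM in WT and 30.1, 40.3, 47.3, 39.5 and 47.4 CPM in APP/PS1. The groups were far apart, with no overlap (log2 fold change 2.37 ± 0.17, adjusted p = 1.79e-09, and log2 fold change 2.53 ± 0.19, adjusted p = 9.99e-09). Galc, which breaks down galactosylceramide of myelin, was at 48.4, 54.2 and 67.3 CPM in Control WT and 95.7, 120.0 and 151 CPM in Control APP/PS1. It was at 47.3, 50.4, 47.3, 57.6 and 45.03 CPM in Slc11a2KD WT and 95.4, 108, 117, 86.6 and 99.8 CPM in Slc11a2KD APP/PS1. There was no overlap in either pair (log2 fold change 1.16 ± 0.12, adjusted p = 1.83e-07, and log2 fold change 1.03 ± 0.13, adjusted p = 4.92e-06). Glb1, the beta-galactosidase of ganglioside breakdown, was at 49.1, 56.8 and 63.8 CPM in Control WT and 82.7, 93.7 and 128 CPM in Control APP/PS1. It was at 52.4, 52.7, 65.1, 57.2 and 48.2 CPM in Slc11a2KD WT and 93.1, 82.02, 65.7, 67.3 and 65.8 CPM in Slc11a2KD APP/PS1. In knockdown mice the lowest APP/PS1 libraries lay just above the highest WT library (log2 fold change 0.79 ± 0.12, adjusted p = 6.70e-05, and log2 fold change 0.44 ± 0.13, adjusted p = 0.0234).

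Gm2a, an activator protein of ganglioside breakdown, was at 193, 215 and 239 CPM in Control WT and 154, 167 and 223 CPM in Control APP/PS1 (log2 fold change -0.29 ± 0.16, adjusted p = 0.277). It was at 204, 243, 215, 172 and 137 CPM in Slc11a2KD WT and 189, 136, 117, 80.2 and 105 CPM in Slc11a2KD APP/PS1 and passed as lower there (log2 fold change -0.63 ± 0.17, adjusted p = 0.0157). Library 0004 lay inside the WT range, and adjusted p was 0.0587 without Slc11a2KD WT 0002. With libraries 18 to 23 as a covariate the log2 fold change was -0.40 (adjusted p = 0.0643), and with the 2 knockdown groups alone in the fit it was -0.60 (adjusted p = 0.131). The other 5 passed in neither pair. Psap, the saposin precursor, was at 3651 ± 226 and 3383 ± 348 CPM in the control groups and 3459.9 ± 573 and 2629.9 ± 796 CPM in the knockdown groups (log2 fold change -0.11 ± 0.14, adjusted p = 0.72, and log2 fold change -0.40 ± 0.15, adjusted p = 0.0786). Without 0004, Psap passed as lower in the knockdown pair (log2 fold change -0.58 ± 0.13, adjusted p = 0.00256, edgeR). Hexa, the alpha subunit of beta-hexosaminidase, lay between 1141 and 1302 CPM in group means and Asah1, the acid ceramidase, between 704 and 844 CPM. Smpd1, the acid sphingomyelinase, lay between 96.7 and 112 CPM and Arsa, the sulfatide sulfatase, between 84.2 and 85.8 CPM. Arsa had the narrowest spread of group means of the class.

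**Figure D3:**
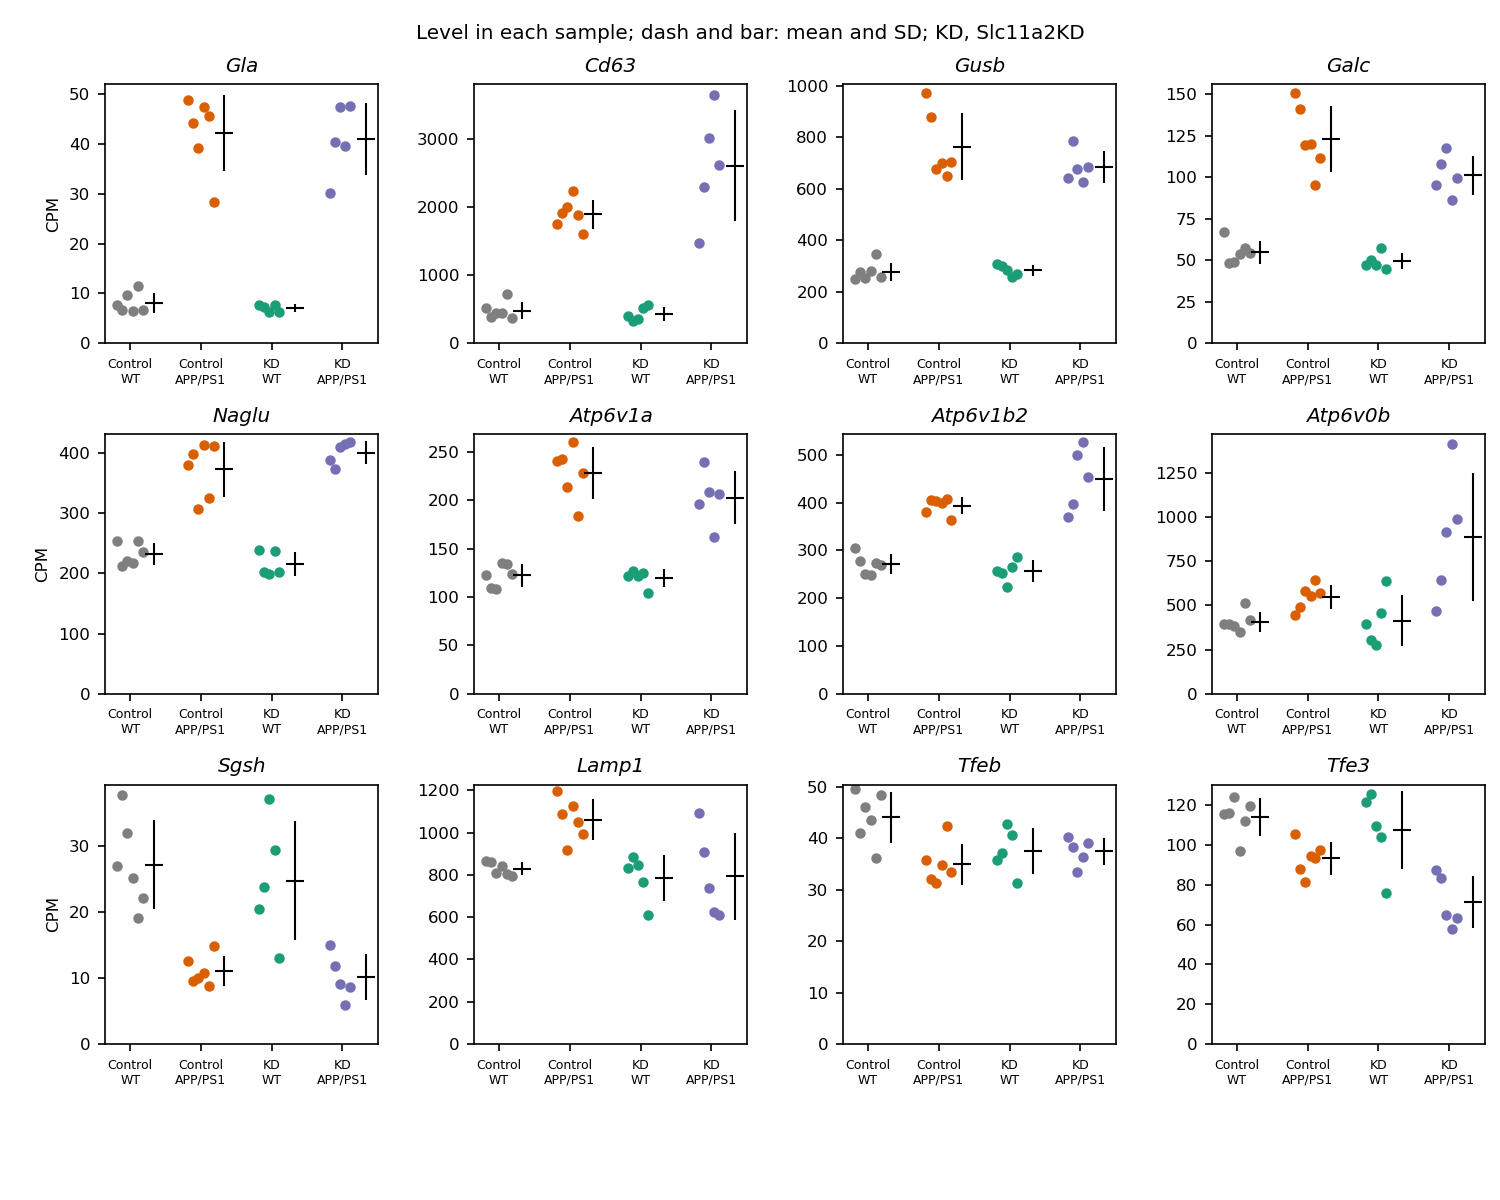
CPM of 12 members in each of the 22 libraries by group, on linear axes that start at 0, with the mean and SD. Gla, Cd63, Gusb, Galc, Naglu and Atp6v1a are separated between WT and APP/PS1 in both control and knockdown mice, whereas Atp6v0b and Lamp1 overlap in knockdown mice. Atp6v0b, Lamp1, Cd63 and Sgsh range widely among the 5 Slc11a2KD APP/PS1 libraries.

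Progranulin and Ppt1 were called in control mice alone, and Tpp1, a tripeptidyl peptidase, in neither pair (335 ± 23.6, 417 ± 46.3, 334 ± 39.5 and 343 ± 76.3 CPM in Control WT, Control APP/PS1, Slc11a2KD WT and Slc11a2KD APP/PS1). Grn, the gene for progranulin, a secreted and lysosomal glycoprotein, was at 1468, 1619.7 and 2002 CPM in Control WT and 1927, 2247 and 2504 CPM in Control APP/PS1, with a small overlap (log2 fold change 0.44 ± 0.10, adjusted p = 0.0067). It was at 1595, 1582, 1868, 1588 and 1397 CPM in Slc11a2KD WT and 2244, 2041, 1763, 1539.6 and 1737 CPM in Slc11a2KD APP/PS1 (log2 fold change 0.22 ± 0.11, adjusted p = 0.197). Ppt1, which removes palmitate from proteins, was at 257, 277 and 298 CPM in Control WT and 329, 369 and 417 CPM in Control APP/PS1, without overlap (log2 fold change 0.43 ± 0.081, adjusted p = 0.000764). It was at 277, 269.6, 266, 289 and 257 CPM in Slc11a2KD WT and 345, 323, 311, 281 and 278 CPM in Slc11a2KD APP/PS1, where 0021 and 0023 lay inside the WT range (log2 fold change 0.18 ± 0.088, adjusted p = 0.163).

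Of the 8 membrane proteins, 4 rose in both pairs. Cd63, a tetraspanin of late endosomes and lysosomes (chr10:128731528-128748709), was at 379, 443 and 731 CPM in Control WT and 1600.2, 1898 and 2229 CPM in Control APP/PS1. In knockdown mice it was at 399, 323, 352, 513 and 567 CPM in WT and 1477, 2292, 3018, 3638 and 2617 CPM in APP/PS1. The groups were far apart in both pairs (log2 fold change 1.97 ± 0.19, adjusted p = 1.58e-07, and log2 fold change 2.60 ± 0.22, adjusted p = 2.84e-08), and Cd63 also stood highest in the Slc11a2KD APP/PS1 library with the highest short-transcript balance, 0021. Lamp2, a main glycoprotein of the lysosomal membrane, was at 1032, 1148 and 1273 CPM in Control WT and 1422, 1523 and 1594 CPM in Control APP/PS1. It was at 1138, 1103, 1057, 1197 and 1211 CPM in Slc11a2KD WT and 1457, 1474, 1604, 1391 and 1415 CPM in Slc11a2KD APP/PS1. The rise was modest and without overlap (log2 fold change 0.38 ± 0.075, adjusted p = 0.00133, and log2 fold change 0.36 ± 0.082, adjusted p = 0.00404). Its relative Lamp1 was at 795, 826 and 865 CPM in Control WT and 917, 1069 and 1197 CPM in Control APP/PS1, separated but short of the threshold (log2 fold change 0.36 ± 0.12, adjusted p = 0.0708). Lamp1 was at 833, 884, 845, 766 and 608 CPM in Slc11a2KD WT and 1092, 907, 737, 623 and 609 CPM in Slc11a2KD APP/PS1. Those groups overlapped (log2 fold change 0.011 ± 0.14, adjusted p = 0.973).

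Mcoln1, a cation channel that releases calcium and iron from the lysosome, was at 24.8, 27.7 and 34.5 CPM in Control WT and 36.4, 37.2 and 39.8 CPM in Control APP/PS1. It was at 24.1, 25.5, 25.8, 31.8 and 32.4 CPM in Slc11a2KD WT and 36.2, 41.3, 51.6, 40.4 and 50.8 CPM in Slc11a2KD APP/PS1. No pair overlapped (log2 fold change 0.38 ± 0.11, adjusted p = 0.0338, and log2 fold change 0.66 ± 0.12, adjusted p = 0.000898). In control mice 10 of the 12 libraries could each end the Mcoln1 call when left out. Cln3, the membrane protein affected in Batten disease, was at 65.8, 75.5 and 86.98 CPM in Control WT and 90.6, 99.8 and 108 CPM in Control APP/PS1. It was at 85.4, 65.5, 74.4, 76.5 and 82.8 CPM in Slc11a2KD WT and 88.6, 81.6, 108, 109 and 120.5 CPM in Slc11a2KD APP/PS1, with 0018 inside the WT range. Both pairs passed (log2 fold change 0.38 ± 0.10, adjusted p = 0.0179, and log2 fold change 0.40 ± 0.11, adjusted p = 0.0177), the control pair with adjusted p = 0.0508 once Control WT 0012 was left out. Scarb2, the receptor that carries glucocerebrosidase to the lysosome, was called lower in both pairs, at 573 ± 69.6 against 462 ± 30.9 CPM (log2 fold change -0.31 ± 0.10, adjusted p = 0.0499) and 548 ± 70.4 against 438 ± 47.8 CPM (log2 fold change -0.32 ± 0.11, adjusted p = 0.0472). Both calls lay just past the threshold, and 10 of 12 and 6 of 10 libraries could each end them. Ctns, the cystine exporter, fell in control mice from 91.3 ± 6.62 to 75.1 ± 3.97 CPM (log2 fold change -0.28 ± 0.083, adjusted p = 0.0294) and did not pass in knockdown mice (88.1 ± 8.79 and 81.4 ± 3.82 CPM, log2 fold change -0.12 ± 0.091, adjusted p = 0.421). Laptm5, a lysosomal membrane protein of blood-lineage cells, passed in neither pair, at 2997 ± 179.7 and 3192 ± 315 CPM in the control groups and 2969.8 ± 439 and 2448 ± 740.1 CPM in the knockdown groups. Without 0004, Laptm5 passed as lower in the knockdown pair (log2 fold change -0.41 ± 0.15, adjusted p = 0.0485, edgeR).

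The transcripts of the TFEB family did not rise in either pair. Tfeb was at 36.3, 44.9 and 49.5 CPM in Control WT and 31.3, 34.1 and 42.4 CPM in Control APP/PS1, where it passed as lower despite some overlap (log2 fold change -0.34 ± 0.11, adjusted p = 0.0417). In control mice 9 of the 12 libraries could each end that call. It was at 35.8, 37.1, 42.7, 40.7 and 31.3 CPM in Slc11a2KD WT and 40.2, 38.3, 33.4, 36.3 and 39.02 CPM in Slc11a2KD APP/PS1, and these overlapped (log2 fold change -0.0017 ± 0.12, adjusted p = 0.999). Tfe3 was at 97.1, 116 and 124 CPM in Control WT and 81.3, 93.97 and 106 CPM in Control APP/PS1 (log2 fold change -0.29 ± 0.12, adjusted p = 0.135). It was at 122, 126, 109.7, 104 and 76.1 CPM in Slc11a2KD WT and 87.7, 83.4, 64.99, 58.02 and 63.6 CPM in Slc11a2KD APP/PS1, lower in the latter with overlap at 0022 of the WT group (log2 fold change -0.59 ± 0.13, adjusted p = 0.00404). The activity of these factors is set by phosphorylation and nuclear entry, which these data do not measure.

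The results were also set against the short-transcript balance. Over all genes, the median log2 fold change of the shortest and the longest quintile was 0.061 and -0.046 in control APP/PS1 against WT, but 0.33 and -0.34 in knockdown APP/PS1 against WT. With each library's length trend removed from the fit, a setting chosen after seeing the data, 22 of the 27 member calls in control mice were kept in the same direction. The calls of Atp6v1d, Atp6v1f, Lamp2, Mcoln1 and Cln3 were lost and those of Atp6v0a1 and Tfe3 gained, which makes 17 higher and 7 lower. Of the lost calls, the log2 fold change of Atp6v1f went from 0.70 to 0.36, and the others moved less, from 0.37 to 0.34 for Atp6v1d, 0.38 to 0.37 for Lamp2, 0.38 to 0.35 for Mcoln1 and 0.38 to 0.31 for Cln3, with adjusted p of 0.0837 to 0.199 over the 5. Over all genes the split went from 1124 higher and 841 lower to 954 (5.09%) and 1203 (6.41%). In knockdown mice 29 of 32 were kept, the calls of Atp6v0d1, Glb1 and Scarb2 were lost and those of Atp6v0a1, Gaa, Psap and Ppt1 gained, which makes 26 higher and 7 lower. The lost calls went from 0.36 to 0.30 for Atp6v0d1 (adjusted p = 0.0723), 0.44 to 0.38 for Glb1 (0.0534) and -0.32 to -0.24 for Scarb2 (0.109). Over all genes the split there went from 1832 higher and 1202 lower to 1612 (8.59%) and 1168 (6.23%).

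**Figure D4:**
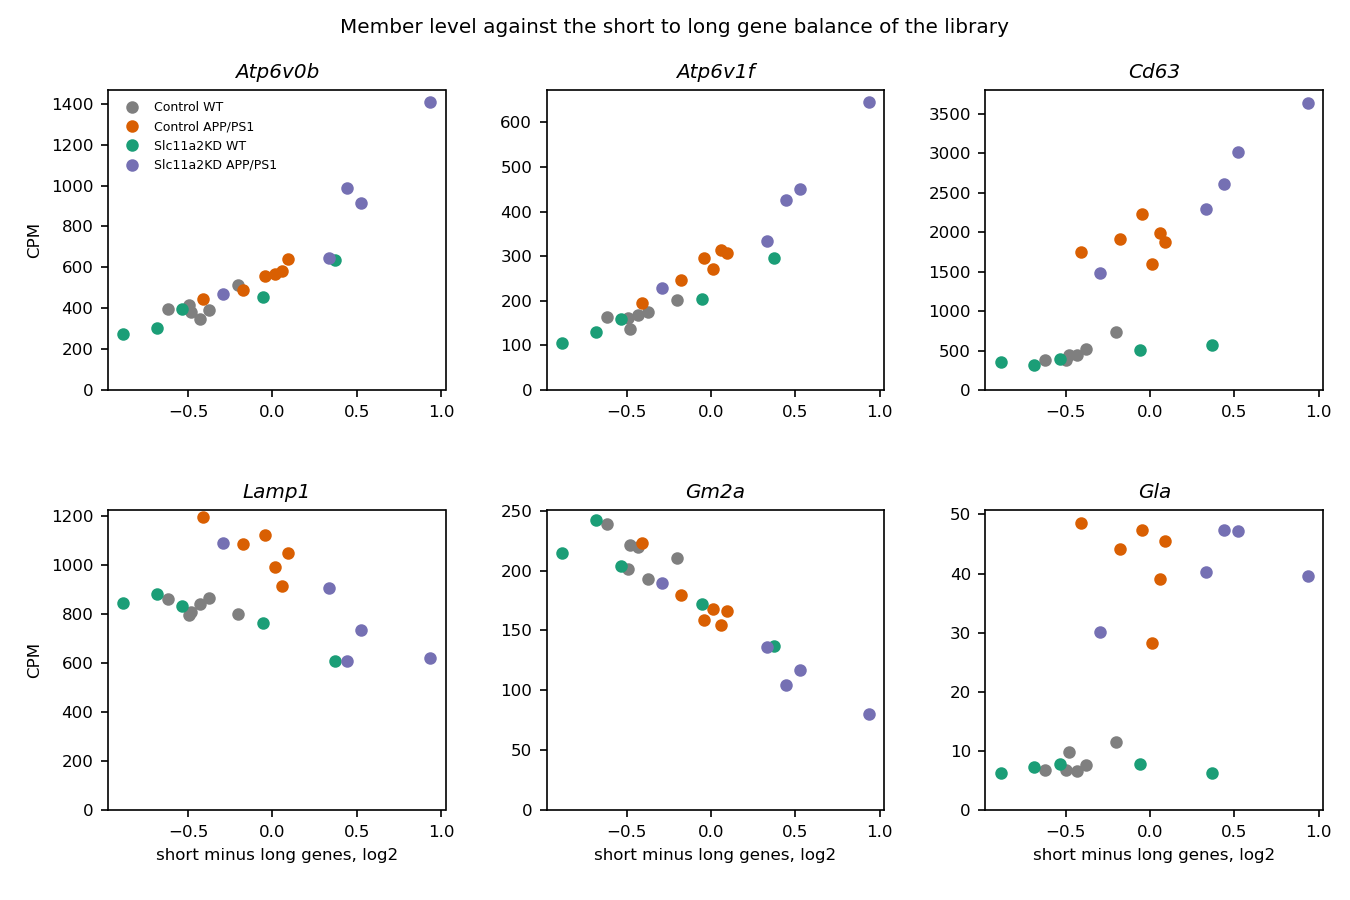
CPM of 6 members in each of the 22 libraries against the library's short-minus-long balance in log2 units, with the groups marked. Atp6v0b and Atp6v1f tend to be higher and Gm2a lower in libraries with a higher balance across the groups, whereas Gla lies in 2 bands, WT and APP/PS1, along the whole axis.

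The knockdown was then compared with its control within each genotype. In WT cells, Slc11a2KD WT against Control WT, 0 members and 0% of all genes passed an adjusted p of 0.05 in edgeR. At an unadjusted p under 0.05 there were 2 members (4.08%, beside 5.92% of all genes), and DESeq2 called 0 members (0.0533% of all genes). The median log2 fold change of the members was -0.04 and that of all genes 0.01. With libraries 18 to 23 as a covariate 0 members passed and 26 of the 49 changed sign. The members with the lowest p were Atp6v0c (log2 fold change -0.36, adjusted p = 0.732), Tfeb (-0.23, adjusted p = 0.818) and Arsb (0.77, adjusted p = 0.844), all with overlapping groups as the values above show. For Atp6v0c the difference was -0.17 ± 0.10 (adjusted p = 1, edgeR) with the counts of the copy added, and 4 of the 5 Slc11a2KD WT libraries and 1 of the 6 Control WT libraries were among those rich in it.

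In APP/PS1 cells, Slc11a2KD APP/PS1 against Control APP/PS1, 0 members and 0% of all genes passed in edgeR as well, but the result turned on 1 library. At an unadjusted p under 0.05 there were 21 members (42.9%, beside 20.6% of all genes), 7 higher and 14 lower. DESeq2 called 8 (3.09% of all genes), with Atp6v0b, Atp6v0e and Atp6v1f higher and Glb1, Gm2a, Ppt1, Lamp1 and Tfe3 lower. The lowest p in edgeR belonged to Ppt1 (log2 fold change -0.27 ± 0.085, adjusted p = 0.205), Atp6v0b (log2 fold change 0.70 ± 0.22, adjusted p = 0.205) and Lamp1 (log2 fold change -0.42 ± 0.13, adjusted p = 0.205). Lamp1 was 1092 CPM in 0004, inside the Control APP/PS1 range, and 609 to 907 CPM in the other 4 knockdown libraries, all below that range. Without 0004, 6 members were higher (beside 7.34% of all genes) and 12 lower (beside 9.07%). The 6 were Atp6v0b (log2 fold change 0.86), Atp6v0e (0.73), Atp6v1f (0.77), Atp6v1g1 (0.58), Atp6ap2 (0.40) and Cd63 (0.61), that is, 5 of them from the pump. The 12 were Gaa (-0.75), Psap (-0.55), Gm2a (-0.68), Man2b1 (-0.67), Lamp1 (-0.56), Laptm5 (-0.52), Glb1 (-0.48), Tfe3 (-0.47), Tpp1 (-0.39), Grn (-0.34), Ids (-0.33) and Ppt1 (-0.32), with adjusted p of 0.0202 to 0.0399 over all 18 (edgeR). Gla, Gusb, Naglu and Lamp2, which separated WT from APP/PS1, did not pass here with or without 0004, with log2 fold changes of -0.043, -0.16, 0.10 and -0.043 over all libraries.

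**Figure D5:**
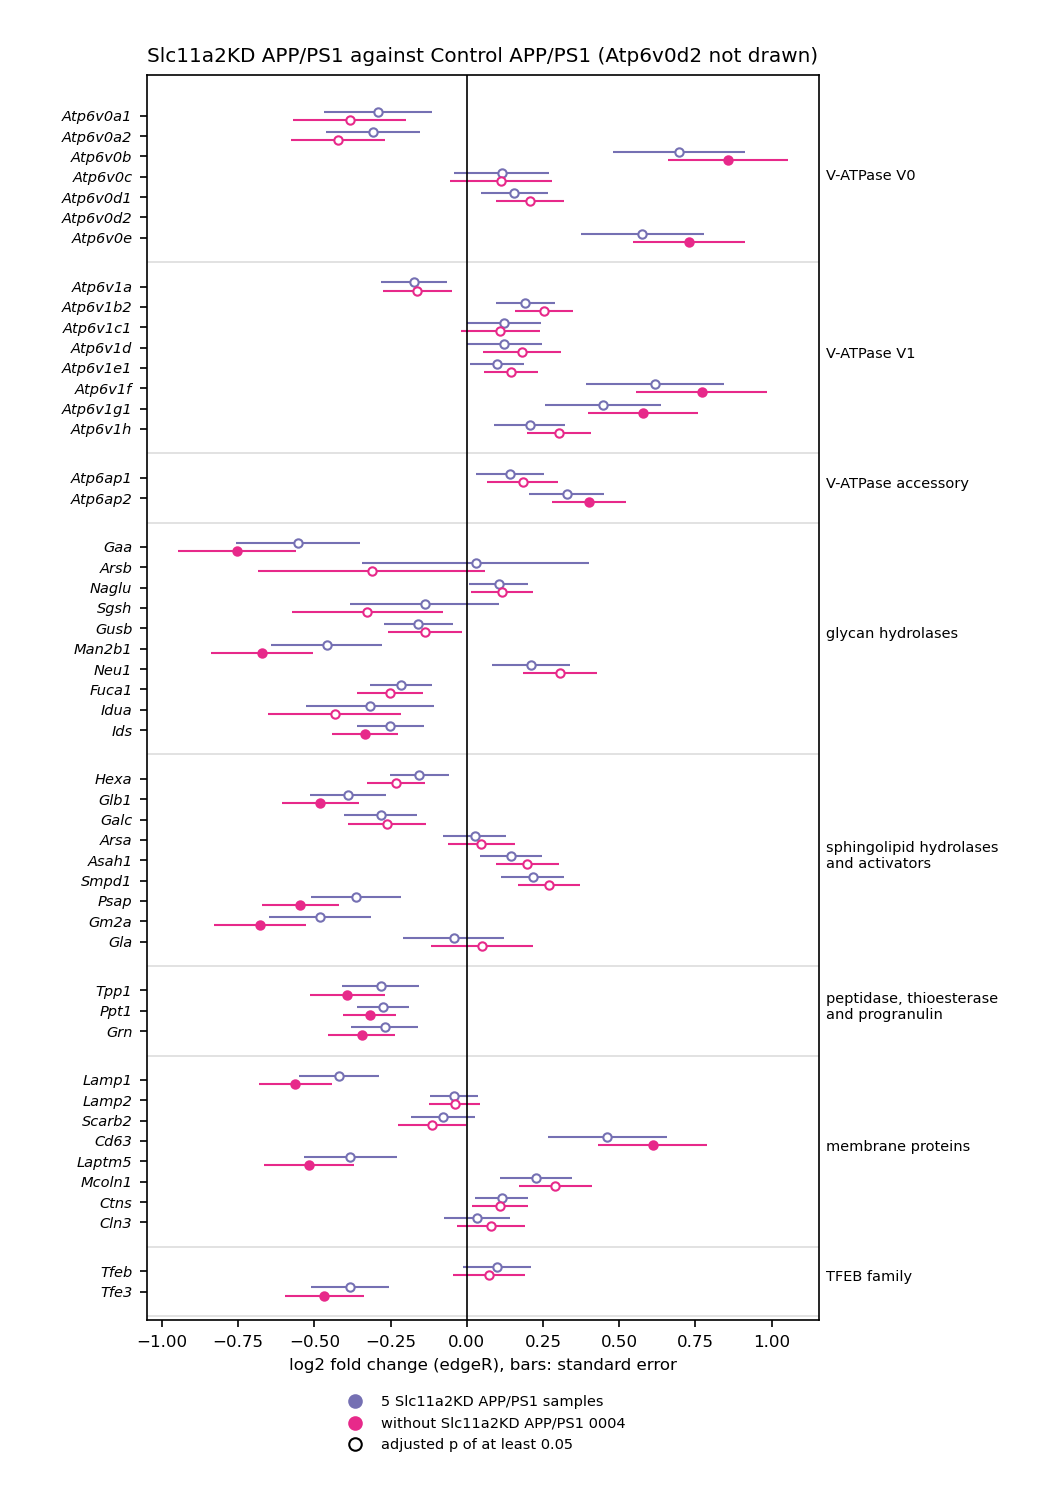
Log2 fold change of Slc11a2KD APP/PS1 against Control APP/PS1 with its standard error for the members, with all 5 knockdown libraries and without library 0004. In edgeR, no member passed with all libraries, and 18 passed without 0004, 6 of them higher and 12 lower.

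Library 0004 differed from the other 4 of its group in several measures at once. Its short-transcript balance was -0.29 against 0.33 to 0.94, its choroid plexus markers summed to 2.30 CPM against 87.7 to 487 CPM, and its number is 4 against 18 to 23. The choroid plexus sum of 0004 lay within the 1.30 to 5.41 CPM of Control APP/PS1, and those of the other 4 lay above it. In 0004 the astrocyte markers (5 genes) summed to 655 CPM against 88.9 to 349 CPM in the other 4 of its group. The oligodendrocyte markers summed to 489.9 CPM against 561 to 1205 CPM and the endothelial markers to 80.8 CPM against 99.6 to 156 CPM. Lymphocyte markers (6 genes) set 0023 apart in that group, at 150.2 CPM against 0.158 to 2.08 CPM. Over all genes, the median log2 fold change of the shortest quintile was 0.36 and that of the longest -0.29 in this comparison. With the length trend removed, 0 members passed with all libraries, where 24 had an unadjusted p under 0.05 (14 higher, 10 lower) beside 20% of all genes. Without 0004 and with the trend removed, 9 were higher and 9 lower. Of the 18 calls 15 were kept, Ids, Ppt1 and Tfe3 lost theirs and Atp6v1b2, Atp6v1h and Mcoln1 gained one. The log2 fold change of Ids was little changed, from -0.33 to -0.30 (adjusted p = 0.0598), while that of Ppt1 went from -0.32 to -0.096 and that of Tfe3 from -0.47 to -0.17. Over all genes 1373 higher and 1696 lower became 1540 and 873. Without 0004 all knockdown APP/PS1 libraries carry numbers from 18 to 23 and all controls lower ones, so library number and knockdown cannot be told apart there. With libraries 18 to 23 as a covariate and all libraries kept, 0 members passed and 23 of the 49 changed sign, among them Psap and all 6 that were higher without 0004 (Atp6v0b, Atp6v0e, Atp6v1f, Atp6v1g1, Atp6ap2 and Cd63). The directions of these thus rest on how the libraries of those numbers are treated, and the part of each of these measures was not tested.

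The interaction asks whether the step from WT to APP/PS1 differed between control and knockdown mice. No member passed after adjustment, and 5 (10.2%, beside 9.08% of all genes) had an unadjusted p under 0.05 in edgeR. The difference between APP/PS1 and WT was estimated higher in knockdown than in control mice for Cd63 (by 0.63 on the log2 scale), Atp6v0b (0.68), Atp6v0c (0.48) and Tfeb (0.33) and lower for Ppt1 (-0.25), each with adjusted p = 0.544. With the counts of its copy added, Atp6v0c was at 0.26 ± 0.14 (adjusted p = 0.546, edgeR).

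Levels differed widely between members. Per kilobase of exon in Control WT, Psap was highest at 1143 CPM per kb, followed by Laptm5 at 716, Grn at 427, Hexa at 215 and Atp6v0b at 190.3. At the low end stood Sgsh at 5.77, Idua at 4.47, Mcoln1 at 3.74, Galc at 3.13, Gla at 2.47 and Atp6v0d2 at 0.145 CPM per kb. The members with the largest increases in APP/PS1 included the 3 with the lowest level in Control WT, Atp6v0d2, Gla and Galc, but also Cd63 and Gusb at 101 and 51.5 CPM per kb.

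Beyond the 49 members, 94 of 101 other listed lysosomal genes were tested. In control mice 25 rose and 5 fell, beside 5.99% and 4.48% of all genes. In knockdown mice 30 rose and 8 fell, beside 9.77% and 6.41%. Decreases were about as common over all genes as among these 94 listed genes. Among those called with a mean of at least 1 CPM, the largest increases in control mice included the channel gene Mcoln3, at 0.0689 ± 0.169 CPM in Control WT and 3.01 ± 1.66 CPM in Control APP/PS1 (adjusted p = 0.0081), for which no fold is given at so low a WT level. They also included Rragd, a Rag GTPase that signals to mTORC1 (log2 fold change 2.82 ± 0.46), and the channel gene Mcoln2 (2.60 ± 0.79). The largest decreases were in Plbd1 (-2.50 ± 0.58), Hyal2 (-0.47 ± 0.14) and Mfsd8 (-0.40 ± 0.11). In knockdown mice the largest increases included Mcoln3, Rragd (2.25 ± 0.50) and Scpep1 (1.18 ± 0.12). Mcoln3 had no count in any Slc11a2KD WT library and 3.61 ± 2.87 CPM in Slc11a2KD APP/PS1, at least 49.3-fold higher against a floor of 3 counts per library. In both pairs Mcoln3 passed the count filter and the limit of 1 CPM only through APP/PS1 libraries. Its place among the largest increases follows in part from that selection. The decreases were led by Slc29a3 (-0.80 ± 0.20), Sort1 (-0.64 ± 0.22) and Flcn (-0.63 ± 0.14). Of 13 cathepsins, the proteases of the lysosome, 7 rose and 2 fell in control mice and 6 rose and 2 fell in knockdown mice. These stand beside the same shares of all genes. In control APP/PS1 cells Ctsz (1.33 ± 0.10) and Ctsb (1.21 ± 0.17) were higher and Ctss (-0.57 ± 0.18) and Ctsf (-0.38 ± 0.085) lower.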

How the data were processed

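The deposited file holds raw counts per gene, which the authors made by trimming paired-end poly(A) reads with Trim Galore 0.6.7 and aligning and counting them on mm39 with STAR, whose gene count mode keeps reads that align to 1 place. They removed genes with fewer than 5 counts in at least 3 samples. Whether counting used strand is not given in the sources used here. Of 23 libraries, 22 were used: the study left out 1 Control APP/PS1 library as an outlier, taken here to be 0010. After TMM scaling, the test was that of edgeR 4.0.16 (R 4.3.3; quasi-likelihood, 1 fit of the 4 groups, at least 5 counts in at least 3 samples, Benjamini-Hochberg over 18759 genes, threshold 0.05, two-sided). Depth was 31128643 to 54872491 counts. DESeq2 1.42.0, limma 3.58.1 (voom), other scalings, filters and sample choices were tried as alternatives. The code was tested on simulated data. The members and the lists of other lysosomal and marker genes were chosen with earlier results of these data known. Members called in any comparison, at most 4 a class by size of change, were given library by library, with Tfeb, Tfe3 and the 3 members of lowest p in each knockdown comparison. Exon lengths came from the GRCm39 annotation and were matched for 99.2% of genes.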

Additional observations from a re-analysis of the deposited data

Results flagged for a closer look

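In 11 of 196 combinations of a member and a group (5.61%), 1 library stood apart from the rest of its group by Dixon's test at the 95% level, and chance alone gives about 1 in 20. In Control WT, library 0014 was high for Atp6v0c (246 CPM), Atp6v0d2 (1.65 CPM) and Gusb (346 CPM), library 0015 was low for Atp6v0a1 (69.0 CPM), and library 0006 was high for Grn (2002 CPM). In Control APP/PS1, library 0005 was high for Psap (4049 CPM) and Gm2a (223 CPM), and library 0007 was low for Atp6v1h (73.6 CPM). In Slc11a2KD WT, library 0022 was low for Atp6v1a (104 CPM) and high for Atp6v1c1 (211 CPM), and library 0001 was high for Hexa (1251 CPM).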

How the results depend on the processing

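The counts of members called held within 1.5 times, apart from those given here, and no member called by edgeR with all libraries changed direction under any alternative. In the comparisons of knockdown with control, where none was called, a covariate for libraries 18 to 23 changed the sign of 26 of the 49 members in WT and 23 in APP/PS1 mice. Leaving out each library in turn gave 17 to 20 higher and 2 to 6 lower in control mice, beside 4.87% to 5.83% and 3.33% to 4.7% of all genes. In knockdown mice it gave 19 to 25 higher and 4 to 9 lower, beside 6.68% to 13.2% and 3.9% to 12.6%. It gave 0 in WT mice with and without knockdown, beside at most 0.00537% of all genes in either direction. In APP/PS1 mice with and without knockdown it gave 0 to 6 higher and 0 to 12 lower. Every call there came without 0004, beside 7.34% and 9.07% of all genes. Requiring an absolute log2 fold change above 1 left 5 higher and 1 lower in control mice (2.80% and 2.09% of all genes) and 8 higher and 1 lower in knockdown mice (3.91% and 1.98%). Without Control WT 0012 and 0015, 3 members were lower in control mice (2.68% of all genes). In knockdown mice, where 9.77% of all genes were higher and 6.41% lower, fitting only the groups compared gave 15 members higher and 3 lower beside 4.33% and 1.78% of all genes. A covariate for libraries 18 to 23 gave 21 higher and 4 lower beside 5.98% and 3.48%, and using only those libraries gave 7 higher and 0 lower beside 1.68% and 0.41%. In APP/PS1 mice, DESeq2 gave 3 higher and 5 lower with knockdown (2.39% and 0.698% of all genes), leaving out Control WT 0012 and 0015 with 0004 gave 6 and 12 (6.53% and 8.08%), and leaving out 0004 with the length trend removed gave 9 and 9 (8.24% and 4.67%). The cause was not tested. No paired analysis was possible because the library numbers are unique to each sample and the groups share none. Depth limits Atp6v0d2 most, which had few or no counts in WT libraries.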
